A study of Mus musculus with 16 samples.

Results

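Mouse male germline stem cells (GSCs) that were grown on a dense Matrigel coat and sorted by their Oct4-GFP level were set against an epithelial-like GSC culture grown on a thin coat. The comparison used 4 of the 16 samples of the study, or of its 12 RNA libraries: the fractions GFP-low, GFP-mid and GFP-high, grown on 10 µg/cm2 Matrigel, and the epithelial-like library from 0.1 µg/cm2. They were chosen by their labels, and a gene was taken as different from the epithelial-like library where all 3 fractions lay on the same side of it. The other RNA libraries come from an unsorted culture on 10 µg/cm2 Matrigel called mesenchymal-like, from a feeder-removal series, and from feeder cultures given DMSO or the G9a inhibitor UNC0638; 4 further samples are ATAC libraries, not analysed here.

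All 4 libraries came from B6;CBA-Tg(Pou5f1-EGFP)2Mnn/J mice, with an age label of postnatal day 5.5. This transgene drives green fluorescent protein from regulatory sequence of Pou5f1 (Oct4), so the sort separates cells by reporter brightness and not by position in a lineage. Per the labels' protocols, the cultures were started from sorted germ cells that were Oct4-positive and KIT-negative, and were kept in StemPro-34 medium with GDNF, bFGF and EGF. The epithelial-like library carries no label for a second sort before RNA extraction. Since every group is a single library, the spread between replicates is unknown, and the values below carry no p-value. The density of Matrigel, the sort and the experiment differ together between the 2 sides, and their effects cannot be told apart. That the 2 sides come from different experiments follows the titles and the rule of the comparison, as the labels do not state it. The same holds for the other experiments named below.

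GSCs are the cultured form of the spermatogonial stem cells of the testis. They depend on GDNF, which signals through the receptor pair GFRA1 and RET and maintains a set of transcription factors that includes ETV5, BCL6B and LHX1. In culture they can grow as tight, domed, epithelial-like colonies or spread as flat, fibroblast-like cells, and cell-cell junctions, cytoskeletal genes and matrix genes are the usual readouts of that difference. Matrigel is a basement membrane extract rich in laminin.

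The libraries held 4459984 expected counts for the epithelial-like culture and between 7925471 and 12019651 for the fractions. Levels are given in CPM, which are counts divided by a TMM-adjusted library size, and a difference is the log2 ratio of CPM + 1 to the epithelial-like library. 3 counts, the floor used for a fold against 0 counts, corresponded to 0.704 CPM in the epithelial-like library and to between 0.238 and 0.376 CPM in the fractions. The files' own length columns imply a fragment length of 133 bases in the epithelial-like library and of 165 to 173 bases in the fractions, and the other 8 libraries ranged from 147 to 157. 4 abundant loci that may share reads with near-identical copies (LOC672857, LOC627695, Lars2 and Rp23-480b19.10) took 8.09% of the epithelial-like counts and between 1.5% and 4.20% of those of the fractions. The labels give no date or batch.

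The germ-cell label held in all 4 libraries. Ddx4, the RNA helicase that marks the germline, was at 545 CPM in the epithelial-like library and at 639, 640 and 589 CPM in GFP-low, GFP-mid and GFP-high. Gfra1 was at 139 CPM against 176, 79.9 and 58.5, and Ret was at 435 CPM against 705, 408 and 316. Per length, as deposited TPM, the epithelial-like library held 307 for Ddx4, 66.6 for Gfra1 and 91.3 for Ret. All 3 markers were thus abundant on both sides, and the epithelial-like level of Gfra1 and Ret fell inside the range of the fractions. Pou5f1, which the reporter follows, was at 77.0 CPM in the epithelial-like library and at 83.9, 176 and 367 CPM in the fractions, in the order on which the sort was based. The epithelial-like level was closest to that of GFP-low.

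Of 14301 genes tested, 285 were at least 2-fold higher in all 3 fractions (1.99%) and 181 were at least 2-fold lower in all 3 (1.27%). Without a minimum size, 4672 genes (32.7%) had all 3 fractions above the epithelial-like library and 4094 (28.6%) had all 3 below. The remaining 5535 (38.7%) had it inside the range of the fractions. The 3 ratios share the epithelial-like library, so they are not independent. Single fractions differed more often than all 3 together: 664 genes were 2-fold higher in GFP-low, 848 in GFP-mid and 1101 in GFP-high, while 675, 449 and 527 were 2-fold lower. The split of the calls depends on the scale. With total counts it was 362 higher and 133 lower, with deposited TPM 335 and 98, and with ratios centred on the germ-cell identity genes 169 and 285. Requiring 2 fractions instead of 3, the count of higher genes was 572 without GFP-low and 446 without GFP-high, and that of lower genes was 275 without GFP-low. The median ratio of all tested genes was 0.02, 0.03 and 0.03 in the 3 fractions, and it was 0.14 with total counts, 0.21 with TPM and -0.15 with germ-cell centring as the mean of the fractions. Directions given below for single genes and lists are on the CPM scale. The list medians that kept 1 sign in the settings tried were those of epithelial junctions and keratins, mesenchymal, fibroblast, macrophage, Sertoli cell, interferon-stimulated, acute-phase, basement membrane, YAP and actin, TGF-β and BMP, ribosomal protein and histone genes. The median of the germ-cell identity list was above 0 except where it was set to 0 by centring on that list, and the medians of the other lists changed sign.

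**Figure D1:**
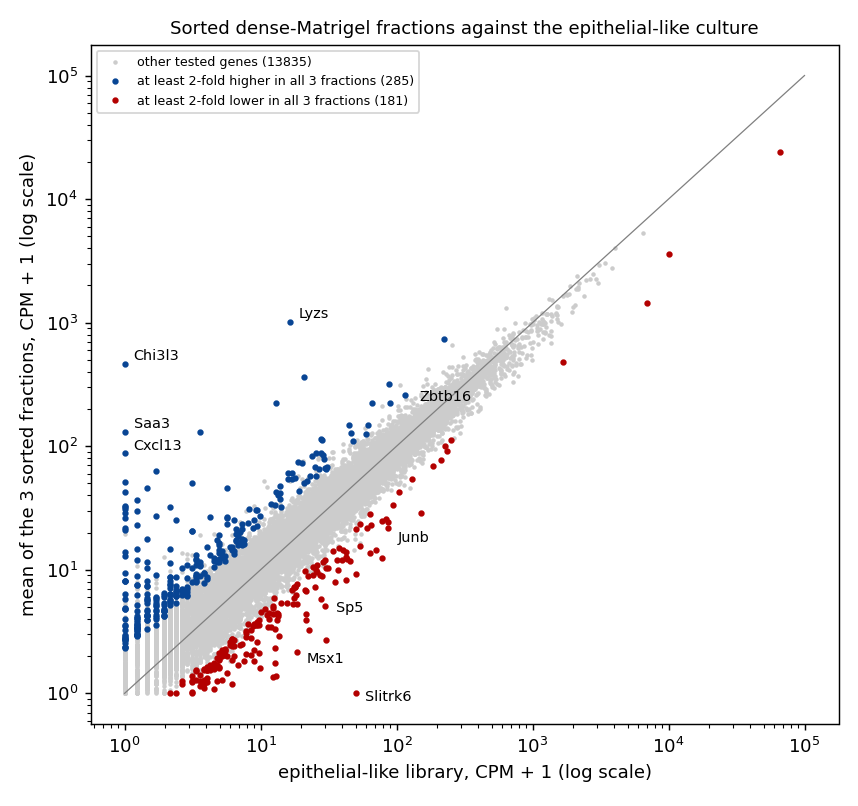
Each point is 1 tested gene: the x axis is CPM + 1 in the epithelial-like library and the y axis is the mean CPM + 1 of the 3 sorted fractions, both on log scales, with the grey line at equality. The 285 blue genes and 181 red genes passed 2-fold in all 3 fractions; Chi3l3 and Lyzs stand far above the line and Slitrk6 far below it.

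The called genes were placed among the other 8 RNA libraries, which gave a range for each gene. Of the 285 higher genes, 114 had all 3 fractions above that range and the epithelial-like library inside it, 101 had the epithelial-like library below the range but not all 3 fractions above it, 14 had both, and 42 had neither. In the rest both sides lay above the range. Of the 181 lower genes, 57 had all 3 fractions below the range with the epithelial-like library inside it, 62 had the epithelial-like library above it, 9 had both and 45 had neither, and in the rest both sides lay below the range. The mesenchymal-like library, the unsorted culture on the same dense Matrigel, was on the epithelial-like side of all 3 fractions in 231 of the 285 higher and 171 of the 181 lower genes. That side includes levels beyond the epithelial-like one. The genes were called because the fractions lay far from the epithelial-like library, which by itself favours this placement. No share over all tested genes was counted beside it. The fractions differed among themselves by less than the smallest of their 3 ratios in 242 of the higher and 167 of the lower genes. The genes were called on that same ratio, so these counts are partly built in. The fractions are different groups and not replicates. Predicted loci, which can take reads from similar copies, made up 25.6% of the higher and 23.2% of the lower genes. Their share among all tested genes was not counted, so no excess can be read from these values.

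Several of the highest ratios belonged to genes of macrophages, the phagocytes of the innate immune system. Chi3l3 (current symbol Chil3), a secreted chitinase-like protein of alternatively activated macrophages, had 0 counts in the epithelial-like library and was at 719, 583 and 82.3 CPM in GFP-low, GFP-mid and GFP-high. It was at least 117-fold higher in GFP-high, the fraction with least of it, and its highest level in the 9 unsorted libraries was 0.0846 CPM. Lyzs, which encodes lysozyme, was at 15.5 CPM in the epithelial-like library, at 30.2 CPM in the mesenchymal-like library and at 1524, 1353 and 182 CPM in the fractions. Its log2 ratio in GFP-high was 3.48, with a counting interval of 3.20 to 3.94. Both genes were highest in GFP-low and lowest in GFP-high, and no fraction overlapped the epithelial-like level.

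The macrophage and myeloid list had 29 genes, of which 24 passed the filter on the mean over the 12 libraries. That filter can be met by the fractions' own high levels, so the counts describe the genes and do not test them. 15 of the 24 were at least 2-fold higher in all 3 fractions, none was lower, and 23 had all 3 fractions above the epithelial-like library, beside 1.99%, 1.27% and 32.7% of all tested genes. The medians were 4.35, 3.85 and 1.55 in GFP-low, GFP-mid and GFP-high. Summed over the 29 genes, the level was 86.8 CPM in the epithelial-like library, 2305, 2129 and 340 CPM in the fractions, and between 60.9 and 133 CPM in the other 8 libraries. The exception was Lcp1, an actin-bundling protein of leukocytes, at 11 CPM against 20.4, 16.8 and 9.13. Aif1, Cx3cr1, Clec7a, Msr1 and Ccr2 did not pass the filter, and Ccr2 was at 0 counts in 2 of the 3 fractions. In the epithelial-like library 10 of the 29 genes were at 0 counts, and in each fraction 1 was.

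Members of the list covered several functions of the cell type. Csf1r, the receptor for the macrophage growth factor, was at 0.235 CPM in the epithelial-like library, or 1 count, and at 52.5, 50.3 and 5.20 CPM in the fractions. The complement genes C1qa, C1qb and C1qc were at 0, 0.704 and 0.469 CPM against 38.7, 81.6 and 53.5 CPM in GFP-low. In GFP-high these 3 genes were at 3.50, 9.13 and 4.88 CPM. Tyrobp, the adaptor of activating myeloid receptors, had 0 counts in the epithelial-like library and 33.0, 24.2 and 3.18 CPM in the fractions. Sfpi1 (PU.1), the transcription factor of the myeloid lineage, was at 0.235 CPM against 9.03, 7.84 and 1.27, and passed 2-fold only in GFP-low and GFP-mid. In all of these genes the epithelial-like library was below each fraction, and GFP-high was the lowest fraction. Whether this signal comes from macrophages within the sorted samples was not tested, and in bulk libraries fewer cells of a type and less RNA per cell cannot be told apart.

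Of the 12 genes with the largest ratios, Lyzs, Ctss and C1qb belong to the list, and several others are also known from phagocytes. Clec4e, a receptor for microbial glycolipids, was at 0 CPM against 16.8, 11.2 and 7.64. Cxcl13, a B-cell chemokine, was at 0 CPM against 115, 138 and 6.90. Marco, a scavenger receptor, was at 2.58 CPM against 190, 172 and 25.7. Cybb, the catalytic subunit of the phagocyte oxidase, was at 0 CPM against 42.1, 28.4 and 5.52, and Ctss, the lysosomal protease cathepsin S, was at 0 CPM against 70.5, 74.2 and 5.31. Each of these 5 genes was lowest in GFP-high among the fractions. Of the 285 higher genes, 15 had at most 3 counts in every one of the 9 unsorted libraries, and these include Chi3l3, Cxcl13, Mpeg1, C1qa, Tyrobp and F13a1. Leaving out the macrophage list left 270 higher genes. Leaving out the genes whose GFP-low level was over 3 times their GFP-high level left 242.

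RefSeq promoters (assembly GRCm38.p6) were searched for 11 of the 15 macrophage genes that were higher in all 3 fractions; Csf1r, Emr1 (Adgre1), Tyrobp and C1qa had no entry. The motif was GAGGAAGT on either strand, a sequence bound by PU.1, in the 250 bases before the start site. It was present in 1 of the 11 (9.09%) and in 802 of 32851 promoters in all (2.44%). The promoter that held it is that of C1qc, chr4:136892915-136893164 on the minus strand, shown because C1qc is one of the genes that was near 0 in the epithelial-like library and higher in each fraction. The capitals mark the motif, which is on the other strand and starts 195 bases before the start site.
C1qc: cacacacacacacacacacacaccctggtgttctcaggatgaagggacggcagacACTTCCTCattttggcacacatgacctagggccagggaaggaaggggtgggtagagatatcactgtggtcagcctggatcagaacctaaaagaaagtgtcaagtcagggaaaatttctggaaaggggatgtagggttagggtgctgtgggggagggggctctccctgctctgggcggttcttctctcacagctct

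**Figure D2:**
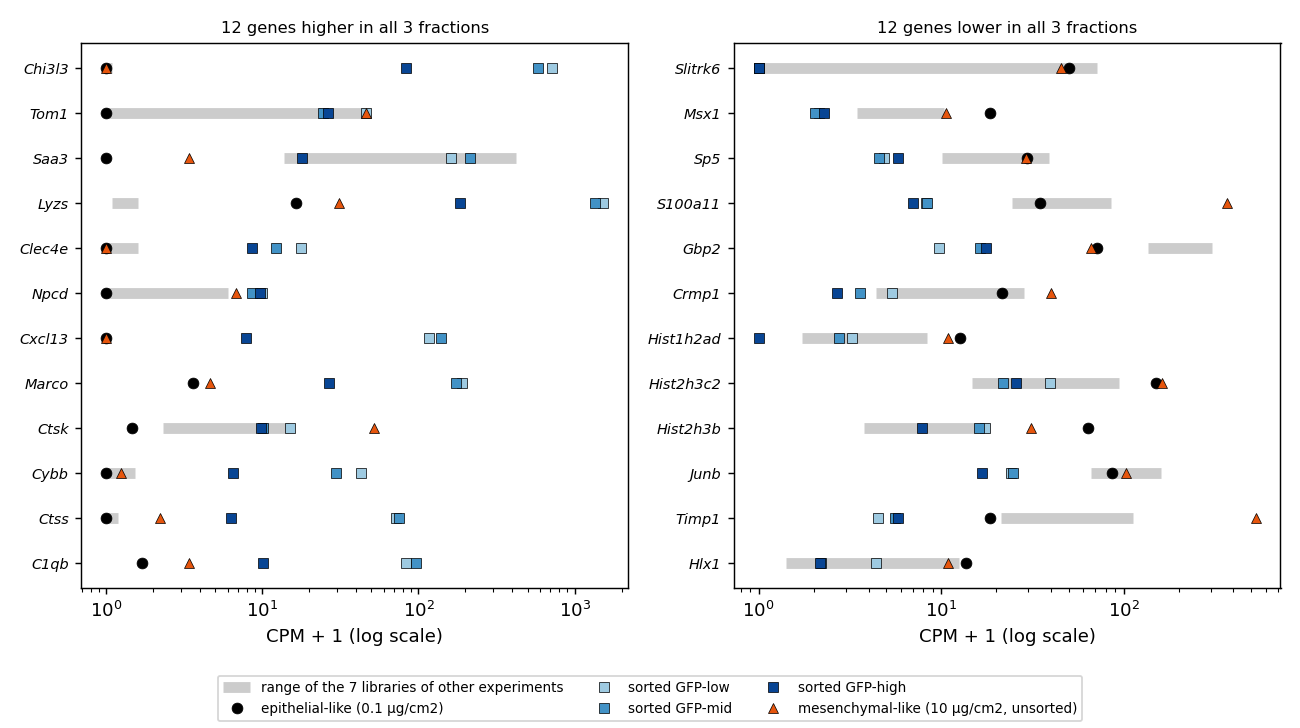
CPM + 1 on a log scale for the 12 genes with the largest and the 12 with the most negative smallest ratio: circles are the epithelial-like library, squares the sorted fractions, triangles the mesenchymal-like library, and grey bars the range of the 7 libraries of the other experiments. Most of the higher genes are at or near 0 in the libraries of the other experiments, whereas Tom1, Saa3, Npcd and Ctsk reach higher levels there.

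The remaining genes of the 12 were Saa3, Ctsk, Tom1 and Npcd. Saa3, a serum amyloid induced in inflammation, had 0 counts in the epithelial-like library, 162, 213 and 16.9 CPM in the fractions and between 12.7 and 421 CPM in the 7 libraries of the other experiments. Hp, the hemoglobin scavenger haptoglobin, had 0 counts against 45.3, 41.2 and 4.25 CPM, and Lcn2, the iron-binding lipocalin, had 0 counts against 56.0, 24.3 and 3.18 CPM. In these 3 genes the epithelial-like library was the lowest of the 12. Of 21 acute-phase and inflammatory genes tested, 6 were higher in all 3 fractions (Saa3, Hp, Lcn2, Cp, C3 and Tnfaip3), beside 1.99% of all tested genes, with medians of 0.44, 0.31 and 0.95. Their level, too, was lower in GFP-high than in GFP-low except for Tnfaip3, and the part of the macrophage genes in this was not tested. Ccl2, a monocyte chemokine, went the other way at 3.05 CPM against 1.38, 1.03 and 1.06.

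Ctsk, the collagen-degrading cathepsin K, was at 0.469 CPM in the epithelial-like library, or 2 counts, and at 14.0, 9.11 and 8.81 CPM in the fractions, with 50.7 CPM in the mesenchymal-like library. Tom1, an adaptor of endosomal sorting, had 0 counts in the epithelial-like library and was at 44.9, 23.4 and 25.3 CPM in the fractions, but it was also listed at 0 with DMSO and with 2 µM UNC0638. Whether read assignment sets these values of 0 was not tested, so its ratio is uncertain. Npcd, a gene model that overlaps others, had 0 counts against 8.90, 7.6 and 8.70 CPM and is uncertain for that reason.

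Of 30 tested genes of the GDNF receptor, its targets and the self-renewal factors, 20 had the epithelial-like level inside the range of the fractions, 4 had all 3 fractions above it and 6 below, beside 38.7%, 32.7% and 28.6% of all tested genes. The medians were 0.26, -0.20 and -0.34 in GFP-low, GFP-mid and GFP-high. Etv5 was at 368 CPM against 614, 319 and 222, and Bcl6b at 190 CPM against 348, 211 and 173. Dusp6 and Spry4, feedback inhibitors of ERK signalling, were at 265 CPM against 364, 210 and 135 and at 101 CPM against 133, 64.7 and 30.0. For these 4 genes, as for Gfra1 and Ret, the epithelial-like library was below GFP-low and above GFP-high.

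Of that list 1 gene was called higher and 2 lower, beside 1.99% and 1.27% of all tested genes. Zbtb16 (PLZF), a transcriptional repressor required for stem cell maintenance, was at 115 CPM against 291, 234 and 248, with log2 ratios of 1.34, 1.02 and 1.11. No library outside the fractions was above 122 CPM for it. Lhx1, a GDNF-dependent homeodomain factor, was at 104 CPM against 50.3, 40.8 and 33.8, with ratios of -1.03, -1.33 and -1.59. Pou3f1, another factor downstream of GDNF, was at 27.5 CPM against 3.13, 9.66 and 10.9. For Lhx1 and Pou3f1 the epithelial-like library was the highest of the 12, and the mesenchymal-like library held 75.8 and 18.1 CPM. T (brachyury) was at 1.17 CPM against 9.91, 5.38 and 2.97, and passed 2-fold only in GFP-low and GFP-mid.

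Of 27 germ-cell identity genes tested, 13 had all 3 fractions above the epithelial-like library and 3 had all 3 below, beside 32.7% and 28.6% of all tested genes. None was called, which is near the background of 1.99% and 1.27% for a list of this size. Dazl, a translational regulator of germ cells, was at 1842 CPM against 1931, 1721 and 1481. The piRNA genes Piwil2 and Mov10l1 were at 468 CPM against 572, 492 and 554 and at 386 CPM against 450, 481 and 584. Kit, the receptor gained on differentiation, was at 33.3 CPM against 62.3, 74.3 and 130, just short of 2-fold in GFP-low (0.88). Of 21 differentiation genes, Cyp26a1, which degrades retinoic acid, was lower at 9.86 CPM against 4.14, 3.41 and 3.93, and none was higher. Stra8, a retinoic acid target, was at 64.8 CPM against 67.2, 133 and 179. The medians of the self-renewal, differentiation and pluripotency lists turned sign under some scalings, and none of 19 pluripotency genes was called, which is likewise near the background.

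**Figure D3:**
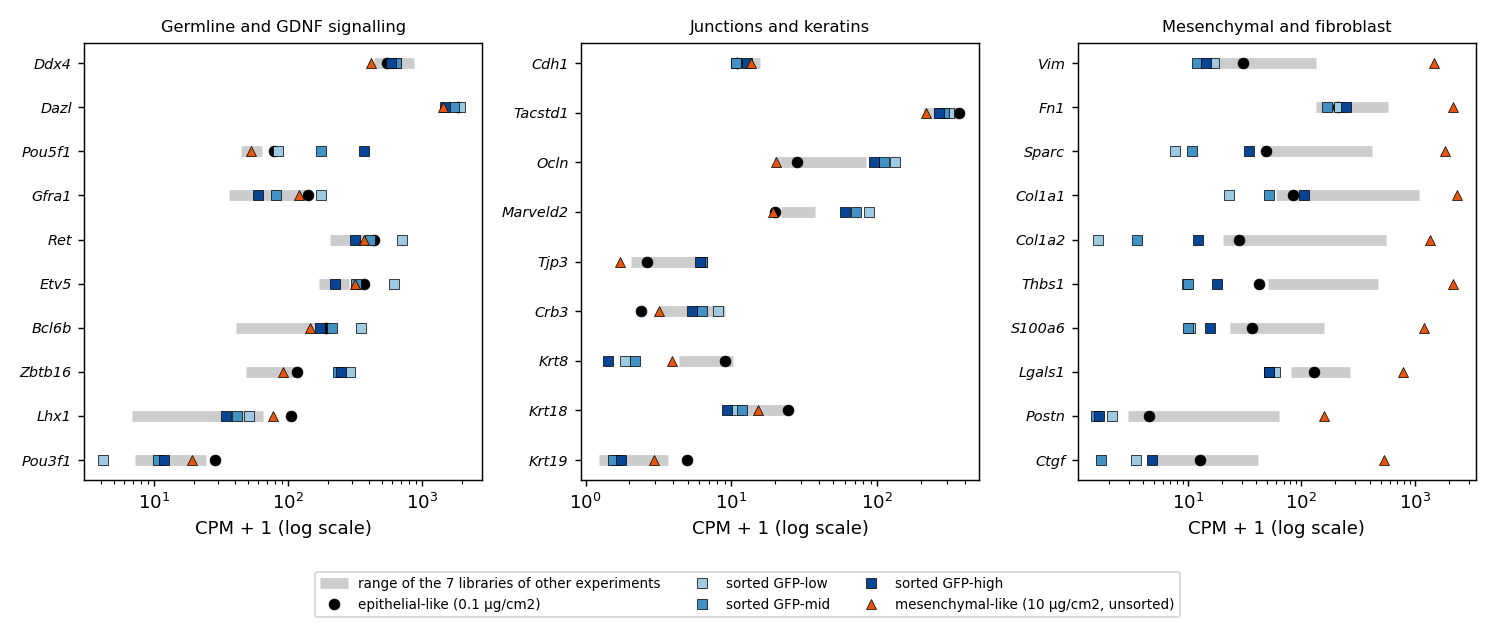
CPM + 1 on log scales for germline genes (left), junction and keratin genes (middle) and mesenchymal and fibroblast genes (right), with the symbols of the plot of the 24 named genes. The fractions sit on both sides of the epithelial-like library on the left, above it for Ocln and Marveld2 in the middle, and near or below it on the right, where the mesenchymal-like library is far above.

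Of 32 tested epithelial genes, 4 genes of tight junctions and polarity were called higher and 3 keratins were called lower. Ocln, the tight junction protein occludin, was at 27.2 CPM in the epithelial-like library and at 131, 109 and 93.9 CPM in the fractions, with log2 ratios of 2.23, 1.97 and 1.75. Marveld2 (tricellulin), which seals the corners where 3 cells meet, was at 19 CPM against 86.0, 70.2 and 59.3. For both genes no other library reached the fractions: the highest of the 7 libraries of the other experiments were 82.1 and 36.2 CPM, and the mesenchymal-like library held 19.3 and 18.4. Tjp3, a scaffold protein of tight junctions, was at 1.64 CPM against 5.27, 5.31 and 5.10, and Crb3, a determinant of apical polarity, at 1.41 CPM against 7.15, 5.31 and 4.35.

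Of the keratins of simple epithelia, 3 were lower in the fractions, and Krt7, at 0.704 CPM in the epithelial-like library, did not pass the filter. Krt8 was at 7.98 CPM in the epithelial-like library against 0.878, 1.19 and 0.425, its partner Krt18 at 23.2 CPM against 9.65, 10.8 and 8.28, and Krt19 at 3.99 CPM against 0.627, 0.554 and 0.743. The mesenchymal-like library lay in between for all 3, at 2.90, 14.2 and 1.93 CPM. These 3 keratins and the 4 junction genes were the only called members among 32 tested epithelial genes, of which 18 had all 3 fractions above the epithelial-like library and 10 below. Over all tested genes 1.99% were called higher and 1.27% lower, and 32.7% and 28.6% had all 3 fractions above and below. Cdh1 (E-cadherin) was at 9.86 CPM against 9.78, 9.82 and 11.8. Tacstd1, the adhesion molecule EpCAM, was at 362 CPM against 309, 286 and 265. The medians of this list were 0.26, 0.20 and 0.14.

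The fractions and the mesenchymal-like culture grew on the same density of Matrigel. Vim, the intermediate filament of mesenchymal cells, was at 29.6 CPM in the epithelial-like library, at 15.9, 11.1 and 13.5 CPM in the fractions and at 1478 CPM in the mesenchymal-like library. Thbs1, a matrix glycoprotein, was at 41.8 CPM against 8.90, 8.95 and 17.2, with 2177 CPM in the mesenchymal-like library. Col1a1, a chain of type I collagen, was at 84.0 CPM against 22.2, 50.9 and 104, with 2377 CPM in the mesenchymal-like library. In each of these genes the mesenchymal-like library was far above both the fractions and the epithelial-like library.

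Among 30 tested mesenchymal genes, 3 were lower in all 3 fractions (S100a6, Timp1 and Lgals1) and none was higher, with medians of -0.45, -0.45 and -0.25. Among 27 fibroblast genes, 5 were lower (Col1a2, Col5a1, Postn, Thbs1 and Ctgf) and none was higher, with medians of -1.09, -0.71 and -0.24. Over all tested genes 1.27% were called lower and 1.99% higher, so a count of 0 higher in lists of this size is near the background. In the mesenchymal-like library, which shares the epithelial-like library as its reference, 25 of the 30 and 26 of the 27 were at least 2-fold higher, beside 10.7% of all tested genes (1.78% were at least 2-fold lower). Its list medians were 3.91 and 5.05. Col1a2, the other chain of type I collagen, was at 27.0 CPM in the epithelial-like library and at 0.627, 2.53 and 11.4 CPM in the fractions. Summed over the 28 fibroblast genes, the level was 471 CPM in the epithelial-like library, 178, 210 and 363 CPM in GFP-low, GFP-mid and GFP-high, and 13254 CPM in the mesenchymal-like library. The fibroblast sum was thus lowest in GFP-low, where the macrophage sum was highest. The part of fibroblasts in these levels was not tested.

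**Figure D4:**
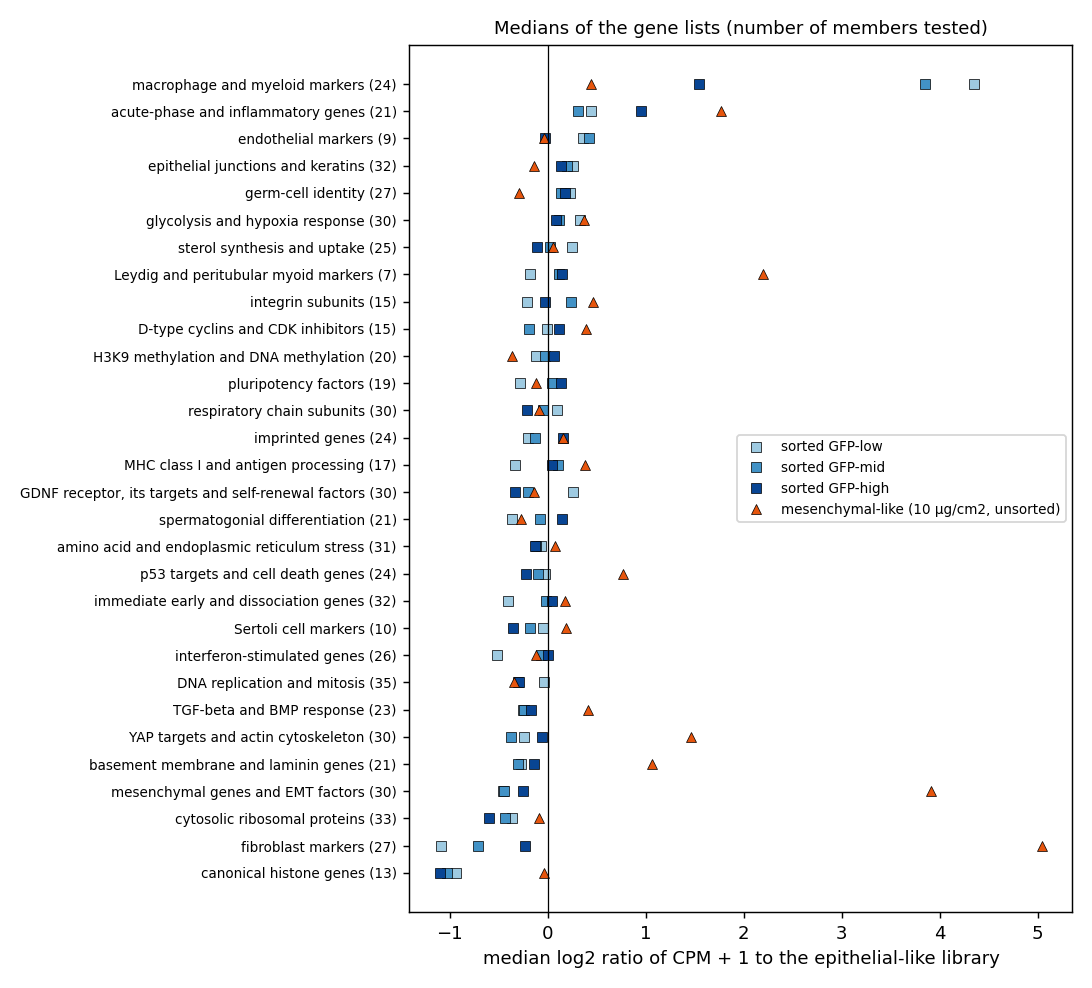
Median log2 ratio of CPM + 1 to the epithelial-like library for each list with at least 5 members tested (number in brackets): squares are the sorted fractions and triangles the mesenchymal-like library. The macrophage medians of the fractions lie at 1.55 to 4.35, most other lists lie within 0.5 of 0, and the fibroblast and mesenchymal medians are below 0 in the fractions and at 5.05 and 3.91 in the mesenchymal-like library.

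4 of the 12 genes with the most negative ratios encode transcription factors: Msx1, Sp5, Hlx1 and Junb. Msx1, a homeobox gene of the BMP pathway, was at 17.6 CPM in the epithelial-like library against 1.13, 1.03 and 1.27, with ratios of -3.13, -3.20 and -3.03. Sp5, a target of Wnt signalling, was at 28.6 CPM against 3.89, 3.56 and 4.78, with 28.2 CPM in the mesenchymal-like library. Hlx1, another homeobox gene, was at 12.7 CPM against 3.39, 1.19 and 1.17. Bmp4, a ligand upstream of Msx1, was at 16.2 CPM against 6.14, 2.69 and 4.14, and its antagonist Grem1 was at 2.35 CPM against 0, 0.554 and 0.318. For Msx1 and Sp5 the fractions were below every other library, the lowest of which held 2.46 and 9.14 CPM. Of 23 TGF-β and BMP genes, Bmp4 and Grem1 were called lower and 2 were called higher, beside 1.27% and 1.99% of all tested genes. Id2, an inhibitor of differentiation factors, and Eng, a TGF-β co-receptor, were higher: Id2 had 0 counts in the epithelial-like library against 4.01, 4.99 and 2.65 CPM, and Eng was at 4.22 CPM against 13.4, 10.5 and 10.5.

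Slitrk6, a neuronal transmembrane protein, had the most negative ratio. It was at 49.3 CPM in the epithelial-like library and was listed at 0 counts in all 3 fractions, at least 131-fold lower in GFP-low, the fraction with the smallest bound. It was also listed at 0 in the 3 feeder-removal libraries, and was between 38.7 and 70.8 CPM in the mesenchymal-like library and the 4 feeder libraries given DMSO or UNC0638. The epithelial-like library thus had the level of the density and inhibitor libraries, and the fractions that of the feeder-removal libraries. Whether read assignment sets the values of 0 was not tested, so the ratio of Slitrk6 is uncertain. Crmp1, a phosphoprotein of axon guidance, was at 20.7 CPM against 4.39, 2.61 and 1.70.

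Junb, 3 interferon-stimulated genes, S100a11 and Timp1 were lower in the fractions. Junb, an AP-1 transcription factor, was at 85.9 CPM against 23.1, 23.8 and 15.7, and no other library was below 65.7 CPM. Gbp2 and Gbp3, interferon-induced GTPases, were at 70.2 CPM against 8.78, 15.4 and 16.6 and at 41.5 CPM against 8.53, 12 and 17.9. Ifih1, a sensor of double-stranded RNA, was at 25.1 CPM against 8.28, 9.50 and 8.17. These 3 were the only called members of 26 interferon-stimulated genes, beside 1.27% of all tested genes called lower, and for each the 7 libraries of the other experiments lay above the epithelial-like library. S100a11, a calcium-binding protein, was at 34.0 CPM against 7.27, 7.36 and 6.05, and Timp1, an inhibitor of matrix proteases, at 17.6 CPM against 3.51, 4.59 and 4.78. Of 32 immediate early and dissociation genes, Junb and the chaperone Hspb1 were lower and Atf3, a stress-induced factor, was higher at 0.235 CPM against 2.13, 1.90 and 1.80. Over all tested genes 1.27% were called lower and 1.99% higher, so 1 higher gene in this list is near the background. The median of that list turned sign under some scalings.

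The cholesterol exporters Abca1 and Abcg1 were higher. Abca1 was at 88.0 CPM against 244, 226 and 203, and Abcg1 at 16.0 CPM against 51.9, 51.8 and 57.5; both move cholesterol out of cells. The levels of Abca1 in the fractions were above all 8 other libraries, the highest of which held 104 CPM, whereas Abcg1 reached up to 66.5 CPM in them. Stard4, a carrier of cholesterol, was at 39.2 CPM against 115, 76.0 and 77.8, just short of 2-fold in GFP-mid and GFP-high. Abca1 and Abcg1 were the only called genes of the 25 on the sterol list, beside 1.99% of all tested genes called higher. Sqle and Fdft1, enzymes of the synthesis pathway, were at 183 CPM against 180.2, 138 and 129 and at 169 CPM against 187, 162 and 154. Macrophages also express both exporters, and the part of macrophage genes in these levels was not tested. Of 30 glycolysis and hypoxia genes, Pfkl, a subunit of phosphofructokinase, was at 3.99 CPM against 20.1, 15.5 and 11.3, and the lactate exporter Slc16a3 was at 4.22 CPM against 14.4, 10.9 and 10.9.

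Histone and ribosomal protein genes had list medians below 0 in each fraction. Canonical histone genes have short transcripts without a poly(A) tail and belong to multicopy families, so the reads of single members are uncertain. Of 13 tested, 5 were lower in all 3 fractions, beside 1.27% of all tested genes, with medians of -0.94, -1.03 and -1.10 against -0.03 in the mesenchymal-like library. Hist2h3b was at 62.9 CPM against 16.4, 15.0 and 6.90, and Hist1h1c, a linker histone, at 42.5 CPM against 13.4, 10.5 and 10.1. Hist2h3c2 and Hist1h2ad, which are not on the list, were at 150 CPM against 38.4, 20.7 and 24.7 and at 11.7 CPM against 2.26, 1.74 and 0. Of 33 cytosolic ribosomal protein genes, 26 had all 3 fractions below the epithelial-like library, beside 28.6% of all tested genes, though none by 2-fold in all 3, with medians of -0.37, -0.44 and -0.60. Rps7 was at 1369 CPM against 738, 741 and 567. Rps18 went the other way at 28.2 CPM against 84.8, 77.1 and 73.2, with 146 CPM in the mesenchymal-like library, and is uncertain because of its copies.

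Short transcripts as a class moved with these groups. In the shortest eighth of tested genes, up to 1132 bases, the median ratios were -0.10, -0.08 and -0.20, and 49 of the 181 lower and 32 of the 285 higher genes lay there. In the longest eighth they were 0.01, 0.10 and 0.18, with 14 lower and 21 higher genes. In the mesenchymal-like library the medians of the 8 length classes stayed between -0.09 and -0.02. The part of fragment length in the histone and ribosomal results was not tested. With deposited TPM, which are scaled to length, the mean of the 3 medians was -0.70 for histones and -0.19 for ribosomal proteins beside 0.21 for all genes.

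**Figure D5:**
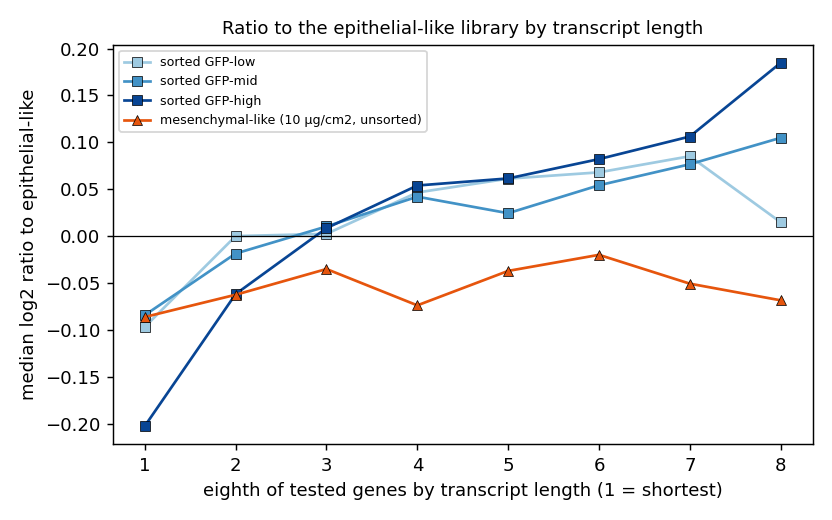
Median log2 ratio to the epithelial-like library in each eighth of the tested genes by transcript length, for the 3 sorted fractions (squares) and the mesenchymal-like library (triangles). The fractions run from below 0 in the shortest class to above 0 in the longer ones, with GFP-low back at 0.01 in the longest, and the mesenchymal-like library stays between -0.09 and -0.02.

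Several lists held no called gene, which with 1.99% and 1.27% of all tested genes called is near the background for lists of this size and is no result about them. These were integrin subunits (15 tested), basement membrane and laminin genes (21), respiratory chain subunits (30), DNA replication and mitosis (35), cyclins D and CDK inhibitors (15), p53 targets (24), MHC class I (17), stress of amino acids and the endoplasmic reticulum (31), and H3K9 and DNA methylation (20). At any size, 20 of the 35 replication and mitosis genes had all 3 fractions below the epithelial-like library and 3 above. Over all tested genes these shares were 28.6% and 32.7%. The median of that list changed sign under some settings. Among 30 YAP and actin genes Ctgf was the only one called, and among 24 imprinted genes Plagl1 was, at 14.6 CPM against 6.65, 3.88 and 2.76. Among the lists of other cell types, the Leydig and peritubular list summed to 13.8 CPM in the epithelial-like library and to between 11.4 and 18.5 CPM in the fractions. The lymphoid, erythroid and mast cell list summed to 10.6 CPM and to between 9.45 and 11.3. Whether such cells were present was not tested. Sertoli cell markers, some of which germ cells also express, summed to 493 CPM against 539, 440 and 391. Endothelial markers summed to 104 CPM against 114, 88.1 and 89.9, with Eng as the only called member of 9.

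Across all tested genes the epithelial-like library resembled the 3 fractions to the same degree. Pearson's r of log2 CPM + 1 across genes, which are not independent replicates, was 0.956 with GFP-low, 0.959 with GFP-mid and 0.959 with GFP-high, and 0.916 with the mesenchymal-like library. The median absolute log2 ratio was 0.34, 0.31 and 0.36 in the fractions and 0.32 in the mesenchymal-like library. It includes counting error, which depends on depth, and the mesenchymal-like library held only 4541279 counts. The similar medians therefore do not show equal distances.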

How the data were processed

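RNA-seq libraries were made from low input by a modified Smart-seq2 procedure, per the labels' protocols. The submitters' processing notes name Trim Galore, RSEM and the build mm10; the aligner, the versions and the annotation release are not given in the sources used here. The authors deposited 1 table for each of 12 libraries with 27128 genes under older symbols. Expected counts are RSEM's estimated counts per gene, not normalized by the authors, per the file headers. Deposited TPM values are scaled to length and library, per the file headers. The length and effective length columns, in bases, were deposited beside them and were used for the fragment length and the length classes.

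Expected counts were rounded. CPM used TMM factors (edgeR 4.0.16, R 4.3.3), and the 14301 genes whose mean over the 12 libraries reached 1 CPM were tested. Log2 ratios used a pseudocount of 1 CPM, which understates differences of low genes. A gene was called at 2-fold in all 3 fractions; with 1 library per group no test between conditions exists. Ratios carry 95% Clopper-Pearson intervals of the read split; reads were amplified without molecular identifiers, so these intervals and the floors describe counting error alone. Against 0 counts, a floor of 3 counts per library was used. Named genes were the 12 highest and the 12 lowest by the smallest of the 3 ratios, with at least 50 counts in each fraction (higher) or in the epithelial-like library (lower), leaving out predicted loci and ribosomal proteins; list genes could also be named. Members, lists and rules were chosen with earlier results of these data known. Of 763 symbols in 31 lists 748 were matched to the files, by names from RefSeq GRCm38.p6. The steps were tested on simulated counts. Alternatives were DESeq2 1.42.0 size factors, total counts, TPM, other pseudocounts and filters, centring, a 4-fold threshold, counting intervals and leaving out a fraction; leaving out gene sets, and a condition on the mesenchymal-like library, were chosen after seeing the data. Python 3.11.15 was used with pandas 2.3.3, scipy 1.17.1 and matplotlib 3.10.9.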

Additional observations from a re-analysis of the deposited data

Results flagged for a closer look

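In 12 genes of the lists, all 3 sorted fractions were at least 2-fold below the epithelial-like library while the mesenchymal-like library, from unsorted cells on the same dense Matrigel, was at least 2-fold above it. The 4 ratios of a gene share the epithelial-like library, and the difference between sorted and unsorted cells was not tested. The log2 ratios of the mesenchymal-like library were 5.05 for S100a6, 4.83 for Timp1 and 2.62 for Lgals1 among the mesenchymal genes. They were 5.6 for Col1a2, 1.43 for Col5a1, 5.14 for Postn, 5.67 for Thbs1 and 5.39 for Ctgf among the fibroblast genes. The chaperone Hspb1 was at 4.71 and the BMP antagonist Grem1 at 4.66. The histone genes Hist1h1c and Hist2h2aa1, whose reads may be shared with copies, were at 1.01 and 1.36. Over all tested genes, 32 of the 181 lower genes and 2 of the 285 higher genes were at least 2-fold the other way in the mesenchymal-like library.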

How the results depend on the processing

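The main counts were 285 genes higher and 181 lower in all 3 fractions, and 4672 and 4094 on one side at any size. With deposited TPM the lower count was 98, and the counts at any size were 7033 and 2252. A pseudocount of 0.1 gave 617 and 286, and 5 gave 65 and 56. A filter at a mean of 10 CPM left 90 and 82, and 2844 genes above at any size, since fewer genes were tested. A 4-fold threshold gave 26 and 14. Centring on the germ-cell identity list gave 169 and 285, with 2874 and 6389 at any size. Leaving out GFP-low gave 572 and 275, and leaving out GFP-high gave 446 higher genes. Requiring each 95% counting interval on the same side left 1469 and 1640 genes at any size, but 280 and 181 at 2-fold. No gene was called the other way under any of these scalings, filters or left-out fractions. Filters, pseudocounts and left-out fractions cannot turn a call around, so that result was fixed in advance. The median of all genes lay between -0.15 and 0.21 under the scalings, so a reversal of a 2-fold call was hardly possible there. All 24 named genes kept their direction and 2-fold difference in the 281 recomputations that gave a value, 7 of them not passing the 10 CPM filter. These genes had been picked for the size of their smallest ratio. Filters leave that ratio unchanged, and leaving out a fraction cannot make it smaller, so these settings could not have failed. The causes of the shifts in the counts were not tested. No paired analysis was possible because every RNA group has 1 library; replicate numbers are shared only by ATAC groups, not analysed here. A total of 4459984 counts limits the epithelial-like side: a gene at 0 there may reach 0.704 CPM.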
